A study of Mus musculus with 4 samples.

Results

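The 8 genes described here encode enzymes and modifiers of the SUMO pathway: Sumo2, Sumo3, Sae1, Uba2, Pias1, Pias2, Pias3 and Pias4. The group is defined by gene symbol and not by a threshold on measured values. All 8 were found among the 23420 gene symbols listed, of which 16857 were above 0 in some library. RNA was measured in 4 libraries of wild-type C57BL/6 mouse pachytene spermatocytes, 2 labelled Ctrl and 2 labelled AZ20. The cells came from testes of mice 23 weeks of age, were isolated by fluorescence-activated cell sorting (FACS) with a DNA-binding dye, and were cultured for 24 h with the solvent DMSO (Ctrl) or with 10 μM AZ20, an inhibitor of the kinase ATR. The labels give a culture temperature of 34 °C and the methods of the study give 32 °C. Each mouse supplied the cells of both conditions in an experiment. Replicate 1 of Ctrl is paired here with replicate 1 of AZ20, and replicate 2 with replicate 2, by number. Neither the labels nor the methods say that equal numbers mean the same mouse. Each library was made from 15000 cultured cells. The study asked whether ongoing ATR signaling keeps the sex chromosomes silent in these cells. All 8 genes are autosomal, and the question here is how their RNA behaved under the same treatment.

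SUMO proteins are small ubiquitin-like modifiers that are joined to lysines of target proteins. A modifier is first activated by the E1 enzyme, a dimer of SAE1 and UBA2, then passed on and placed on the target, often with the help of an E3 ligase such as a PIAS protein. SENP proteases mature the modifiers and take them off again, and SUMO-targeted ubiquitin ligases recognize SUMO chains and mark the modified protein for degradation. In spermatocytes, SUMO is known from the axes of synapsed chromosomes, from pericentromeric heterochromatin and from the sex body, the chromatin domain of the silenced X and Y, and PIAS1 and PIAS4 are known to act at DNA double-strand breaks in somatic cells. The measurements below are of RNA only and do not report on SUMO conjugation.

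The values are TPM, a measure of RNA abundance that is scaled to the same total in each library. TPM are divided by gene length, so a comparison between genes of a library depends on the lengths used. The lengths recovered from the TPM differed from RefSeq exon lengths for some of the 8 genes. They were 5433 against 3513 bases for Pias2, 3855 against 5564 for Pias1 and 1668 against 2571 for Pias4. For Sae1 they were 1871 against 2543 bases, and for Uba2 2524 against 2579. Reads recovered from the TPM came to 14359512 and 16294086 on genes in the Ctrl libraries and to 20777372 and 19060250 in the AZ20 libraries. All 10 markers of pachytene spermatocytes examined were above 1 TPM in every library, and their summed level was between 11497 and 11777 TPM. Markers of Sertoli cells, Leydig cells, macrophages and myoid cells summed to at most 2.31 TPM for each list in each library, and Sox9, Wt1, Cyp11a1, Cyp17a1, Hsd3b1, Insl3, C1qa and Des were at 0 in all 4. The 8 spermatogonial markers summed to between 43.1 and 75.3 TPM, with Stra8, Dmrt1 and Sohlh1 at 0. The 7 round spermatid markers summed to 366 and 151 TPM in Ctrl and to 773 and 252 TPM in AZ20, highest in replicate 1 of each condition, and 6 of the 7 were above 1 TPM in every library. Over 308 X-linked genes tested, the mean level was 0.990 and 0.853 TPM in Ctrl and 27.9 and 27.5 TPM in AZ20. Their median was 0 and 0.0206 TPM in Ctrl and 7.08 and 6.21 TPM in AZ20. Genes were tested if their mean exceeded 1 TPM in either condition. Many of the 308 thus entered through AZ20, and the selection builds in part of this difference. Over 9174 autosomal genes the mean was 99.4 TPM in Ctrl replicate 1 and 99.3 TPM in AZ20 replicate 2, with the other 2 libraries within 1 TPM of these. These genes hold most of the fixed TPM total, so their mean could hardly move.

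Change was tested with limma on log2(TPM + 1) over the 10316 genes whose mean in either condition exceeded 1 TPM. A call required a 2-fold or larger difference together with an adjusted p (Benjamini-Hochberg) below 0.05. With this rule 240 genes were called, 235 higher and 5 lower with AZ20, which is 2.33% of those tested. Of the 8 SUMO pathway genes, 7 were tested and 0 were called by limma. At an unadjusted p under 0.05, limma passed 0 of these 7 and 945 of the 10316 (9.16%), and voom on the recovered reads also passed 0 of the 7, while limma without Ctrl replicate 2 passed 1. With the replicate number as a block, 4.33% of all genes were called and 0 of the 7. The remaining gene, Pias3, lay under the level filter. The 95% intervals of the changes of all 7 lay between −0.94 and 0.82 on the log2(TPM + 1) scale, which understates changes of low genes, so that for Pias4, near 10 TPM, a 2-fold fall in TPM is not excluded by its interval. Of the 7 changes, 6 were above 0 and 1 was below, with a median of 0.12, beside a median of 0.07 over all genes tested. This median was 0.0718 in replicate pair 1 and 0.0551 in replicate pair 2, and it ran from −0.0292 without AZ20 replicate 2 to 0.22 without Ctrl replicate 2, so its sign rests on single libraries. In bulk RNA, fewer cells of a type and less RNA per cell cannot be told apart.

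The modifiers Sumo2 and Sumo3 come first, since their sequences bear on how their levels can be read. Their proteins are close paralogs, and SUMO2 and SUMO3 are the forms that build SUMO chains. Sumo2 lies at chr11:115523102-115536276 on the minus strand and Sumo3 at chr10:77606097-77618331 on the plus strand (GRCm38, GENCODE M21). The coding sequence of Sumo2 (288 bases) and bases 1 to 300 of that of Sumo3 (333 bases in all) are shown to compare how far a sequencing read could tell them apart. Capitals mark bases that differ between the paralogs or that have no partner in their alignment.
Sumo2: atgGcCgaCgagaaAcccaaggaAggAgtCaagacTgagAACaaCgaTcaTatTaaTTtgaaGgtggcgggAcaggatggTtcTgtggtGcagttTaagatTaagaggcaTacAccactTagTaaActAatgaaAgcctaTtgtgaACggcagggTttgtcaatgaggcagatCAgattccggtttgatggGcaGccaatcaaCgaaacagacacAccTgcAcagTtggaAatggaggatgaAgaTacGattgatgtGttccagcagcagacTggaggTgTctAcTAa
Sumo3: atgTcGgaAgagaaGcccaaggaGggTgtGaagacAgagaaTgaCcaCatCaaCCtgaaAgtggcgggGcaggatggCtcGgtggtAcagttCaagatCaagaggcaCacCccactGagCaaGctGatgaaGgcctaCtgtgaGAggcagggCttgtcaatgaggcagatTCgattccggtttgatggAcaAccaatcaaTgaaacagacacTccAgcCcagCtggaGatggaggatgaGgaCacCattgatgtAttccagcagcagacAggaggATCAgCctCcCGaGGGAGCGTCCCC
Of 285 aligned bases, 233 were identical (81.8%), and the longest identical run was 17 bases, short beside the 150-base reads. The end of the Sumo3 coding sequence has no counterpart in Sumo2. Against other annotated genes the picture differed. Transcripts of 13 other annotated genes matched Sumo2 RNA over at least 150 bases at 90% identity or more. Among them, Gm10241 matched 286 bases at 100% identity and Gm12335 matched 327 bases at 99.1% identity. For Sumo3 there were 2 such genes, Gm49325 with 346 bases at 100% identity and Smt3h1-ps with 280 bases at 91.4%. Gm49325 overlaps a Sumo3 exon on the same strand by 145 bases, so at least part of its match is the same stretch of the genome and not another locus. Only uniquely aligned reads were kept upstream, and none of these 15 genes is in the table, so the levels of Sumo2 and Sumo3 are uncertain and part of their reads may have been lost or taken from elsewhere. The other 6 genes had 0 such matches.

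Sumo2 had the highest level of the group. It was at 131 and 190 TPM in the Ctrl libraries and at 196 and 197 TPM in the AZ20 libraries, from 1317, 2185, 2842 and 2583 reads. Both AZ20 libraries were above both Ctrl libraries, but Ctrl replicate 2 was close to them and the gap was made mainly by Ctrl replicate 1. Libraries did not overlap in this way, in either direction, for 38.1% of all genes tested. The change was 0.32 on the log2(TPM + 1) scale (SE 0.21, 95% interval −0.18 to 0.82, limma adjusted p = 0.761), and without Ctrl replicate 1 it was 0.05. The 2 replicate pairs differed in size, with changes of 0.58 and 0.06 on the same scale.

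Sumo3 was at 40.1 and 59.0 TPM in Ctrl and at 42.2 and 63.9 TPM in AZ20. Here the replicate number, not the treatment, separated the libraries, with both replicate 2 libraries above both replicate 1 libraries. The change was 0.09 (SE 0.28, 95% interval −0.57 to 0.76, limma adjusted p = 0.963). Within each library Sumo2 was above Sumo3, by 3.26-fold and 3.22-fold in Ctrl and by 4.64-fold and 3.09-fold in AZ20. The AZ20 values lay on either side of the Ctrl values, and the ratio did not separate the conditions (exact permutation test, two-sided, p = 1, where the smallest p that 2 against 2 libraries allow is 0.333).

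**Figure D1:**
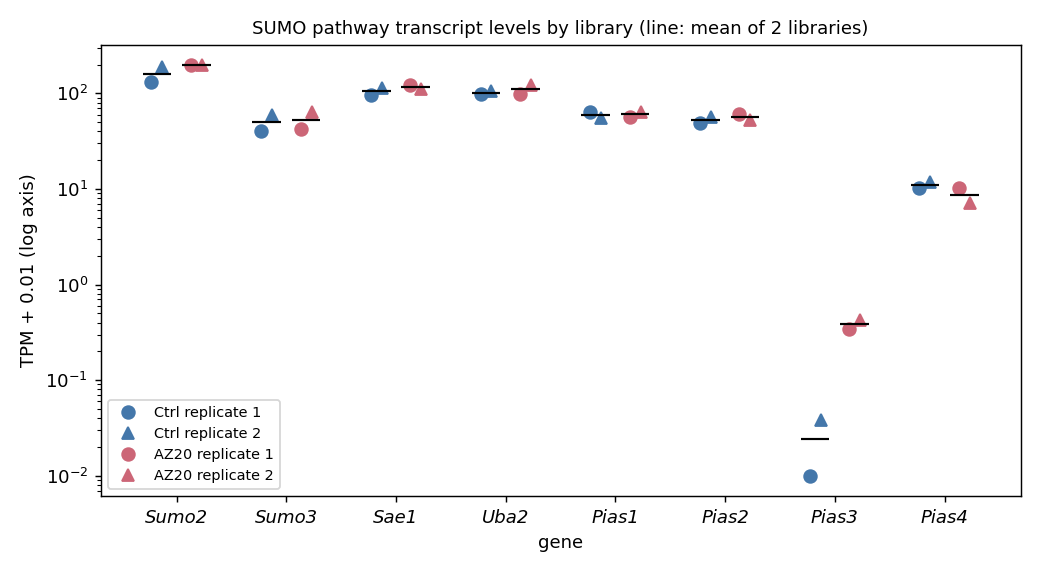
Levels of the 8 SUMO pathway genes in each library, on a log axis of TPM + 0.01, with circles for replicate 1, triangles for replicate 2 and a line at the mean of each condition. The 7 tested genes sit between 7.13 and 197 TPM in every library with Ctrl and AZ20 close together, and Pias3 sits below 0.5 TPM.

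The genes of the E1 enzyme, Sae1 (chr7:16320234-16387806, minus strand) and Uba2 (chr7:34140688-34169599, minus strand), were the next highest by TPM. SAE1 helps to adenylate the modifier and UBA2 carries the catalytic cysteine that holds it. Sae1 was at 96.0 and 114 TPM in Ctrl and at 123 and 112 TPM in AZ20, and Uba2 was at 97.8 and 105 TPM in Ctrl and at 99.5 and 123 TPM in AZ20. For both genes the conditions overlapped. The change was 0.16 for Sae1 (SE 0.18, 95% interval −0.26 to 0.59, limma adjusted p = 0.867) and 0.12 for Uba2 (SE 0.18, 95% interval −0.32 to 0.56, limma adjusted p = 0.914). By TPM, the RNAs of these partners of a dimer stood at nearly equal levels, which depends on the gene lengths used. The Sae1 to Uba2 ratio was 0.981 and 1.08 in Ctrl and 1.23 and 0.910 in AZ20. The ratio rose in one replicate pair and fell in the other and did not separate the conditions (exact permutation p = 1, two-sided).

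The 4 PIAS genes spanned the widest range of levels. They encode E3 ligases with a shared SP-RING domain that also bind transcription factors. Pias1 (chr9:62878368-62987924, minus strand) was at 63.6 and 54.9 TPM in Ctrl and at 56.3 and 64.2 TPM in AZ20. Pias2 was at 48.4 and 56.1 TPM in Ctrl and at 60.8 and 52.9 TPM in AZ20. Neither gene separated the conditions, and in each the libraries of a condition differed among themselves by as much as the conditions did. The change was 0.02 for Pias1 (SE 0.19, 95% interval −0.43 to 0.48, limma adjusted p = 0.987) and 0.12 for Pias2 (SE 0.19, 95% interval −0.34 to 0.58, limma adjusted p = 0.920).

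Pias4 (chr10:81153266-81167923, minus strand) was the 1 tested gene of the group with a lower mean in AZ20. It was at 10.2 and 11.8 TPM in Ctrl and at 10.3 and 7.13 TPM in AZ20, from 172, 227, 250 and 156 reads. AZ20 replicate 1 lay between the Ctrl libraries and AZ20 replicate 2 lay below them, so the conditions overlapped. The change was −0.32 (SE 0.26, 95% interval −0.94 to 0.30, limma adjusted p = 0.816), and without AZ20 replicate 2 it was −0.08. The replicate pairs gave changes of 0.01 and −0.66 on the log2(TPM + 1) scale.

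Pias3 (chr3:96696384-96706070, plus strand) had the lowest level of the group. It was listed at 0 and 0.0280 TPM in Ctrl and at 0.333 and 0.419 TPM in AZ20, which correspond to 0, 1, 15 and 17 reads. A count of 0 in Ctrl replicate 1 allows up to 3.69 reads (exact Poisson 95% interval, counting error only, since reads of amplified libraries are not independent molecules). Both AZ20 libraries were above both Ctrl libraries, at a level far below the filter of 1 TPM. Per read on genes, 32 AZ20 reads against 1 Ctrl read gave a ratio of 24.6 with an exact 95% counting interval of 4.11 to 1003, which compares these reads and not the conditions.

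Among genes this low, this order of the libraries was common. X-linked genes were not left out of the counts that follow. Of 6541 genes under the filter with a value above 0 in some library, 1100 (16.8%) had both AZ20 libraries above both Ctrl libraries. Of the 2714 with at most 1 read in each Ctrl library, a group defined after the Pias3 values were seen, 548 (20.2%) did so. In that group 73 (2.69%) had at least as many AZ20 reads as Pias3. Both the group and the read count were set from Pias3, and genes with a mean above 1 TPM in AZ20 were left out. The 2.69% therefore cannot say how unusual Pias3 was. Without the filter, where 1.18% of 16857 genes were called, the change of Pias3 was 0.44 on the log2(TPM + 1) scale (SE 0.095, 95% interval 0.19 to 0.69, limma adjusted p = 0.272). With limma-voom on genes of at least 10 reads, an alternative chosen after seeing the data that called 0.817% of 13826 genes, Pias3 was not called (limma adjusted p = 0.699). It passed that read minimum only through its AZ20 reads, and the size of the fitted change is not given because Ctrl was almost at 0 reads. An exon of Pias3 overlaps one of Nudt17 on the opposite strand by 4 bases. Nudt17 was at 1.02 and 1.02 TPM in Ctrl and at 0.404 and 0.560 TPM in AZ20, the opposite order to Pias3, and whether reads were counted by strand is not given in the sources used here.

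The summed level of the 4 PIAS genes was steadier than the genes that make it up, at 122.2 and 122.8 TPM in Ctrl and 127.7 and 124.7 TPM in AZ20. Both AZ20 sums were above both Ctrl sums, by a log2 ratio of 0.04 (exact permutation p = 0.333, two-sided, the smallest this unpaired test allows). Pias1 made up 52.0% and 44.7% of the sum in Ctrl and 44.1% and 51.5% in AZ20, and Pias2 made up 39.6% and 45.7% in Ctrl and 47.6% and 42.5% in AZ20. The size of each share depends on the gene lengths used. The shares of Pias1 and Pias2 moved in opposite directions in the replicate pairs and did not separate the conditions (exact permutation p = 0.667 for each, two-sided). Together they make up most of the sum, so they nearly mirror each other and are not separate results. The share of Pias4 was 8.36% and 9.61% in Ctrl and 8.07% and 5.72% in AZ20, lower in both AZ20 libraries (exact permutation p = 0.333, two-sided). Its log2 change was −0.05 in replicate pair 1 and −0.75 in replicate pair 2, so its size rested mainly on replicate pair 2. Pias3 contributed at most 0.336%.

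**Figure D2:**
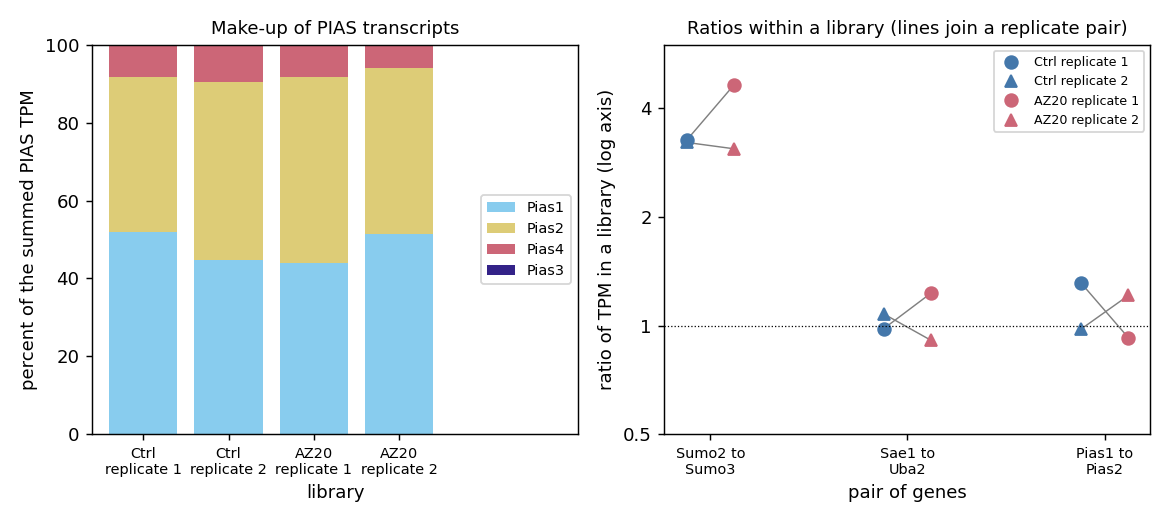
Left, the percent of the summed PIAS TPM that each PIAS gene made up in each library, as stacked bars from 0 to 100. Right, ratios of TPM within a library on a log axis for Sumo2 to Sumo3, Sae1 to Uba2 and Pias1 to Pias2, with lines joining replicate pairs, in which the pairs of lines run in opposite directions for each ratio.

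Ranked by mean TPM, the order was the same in Ctrl and AZ20: Sumo2, Sae1, Uba2, Pias1, Pias2, Sumo3, Pias4 and Pias3. This order depends on the gene lengths used. The ranges over libraries overlapped between Sae1 and Uba2, between Pias1 and Pias2 and between Pias2 and Sumo3, in each condition, so these neighbours were not separated. Between Sumo2 and Sae1, between Uba2 and Pias1, between Sumo3 and Pias4 and between Pias4 and Pias3 the ranges over libraries did not overlap in either condition. In Ctrl, the level of Sumo2 was above that of 89.5% of the genes tested, Sae1 above 86.0%, Uba2 above 85.7%, Pias1 above 80.3% and Pias4 above 53.3%.

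**Figure D3:**
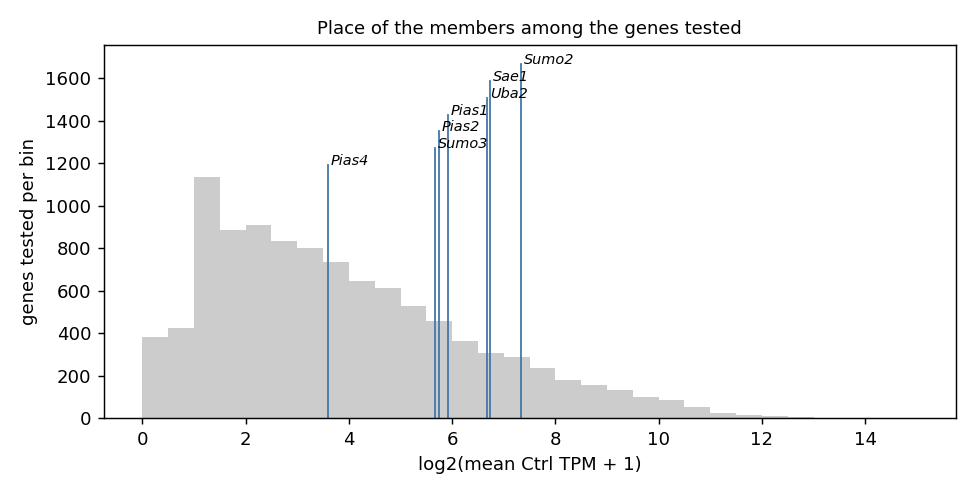
Histogram of log2(mean Ctrl TPM + 1) over the 10316 genes tested, with vertical lines at the 7 SUMO pathway genes tested. All but 1 lie in the upper part of the distribution and Pias4, above 53.3% of the genes tested, lies near the middle.

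The libraries of a condition also differed among themselves. In Ctrl, each of the 7 tested genes other than Pias1 was higher in replicate 2 than in replicate 1. In AZ20 this held for Sumo2, Sumo3, Uba2 and Pias1, while Sae1, Pias2 and Pias4 were higher in replicate 1. The coefficient of variation between the 2 Ctrl libraries was 26.0% for Sumo2 and 27.0% for Sumo3, against 11.8% for Sae1, and between the 2 AZ20 libraries it was 0.495% for Sumo2, 28.9% for Sumo3 and 25.8% for Pias4. The round spermatid markers summed higher in replicate 1 of each condition, as did the levels of Pias1 in Ctrl and of Sae1, Pias2 and Pias4 in AZ20. In each condition the other tested genes of the group ran the other way. The part of the markers in these differences was not tested.

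Around these genes, a list of 25 further SUMO pathway genes was examined, of which 21 were used and 20 passed the level filter. Limma called 0 of them, against 2.33% of all genes tested. Their changes ran from −0.45 to 0.56 with a median of 0.05, and 12 were above 0 and 8 below. At an unadjusted p under 0.05, limma passed 3 of the 20 (15%, against 9.16% of all genes), and voom on the recovered reads passed 3. The count was 2 with the replicate block, 1 with no intensity trend, and 0 with quantile normalization or median-of-ratios scaling. The 3 genes that limma passed were Ranbp2, Rnf4 and Ccnb1ip1.

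Ranbp2, which encodes a SUMO E3 ligase of the nuclear pore, was at 7.49 and 8.95 TPM in Ctrl and at 12.2 and 12.8 TPM in AZ20, a change of 0.56 (SE 0.23, limma adjusted p = 0.537). Rnf4, which encodes a SUMO-targeted ubiquitin ligase, was at 40.0 and 37.9 TPM in Ctrl and at 56.3 and 50.8 TPM in AZ20, a change of 0.45 (SE 0.19, limma adjusted p = 0.537). Ccnb1ip1 encodes HEI10, a RING protein required for meiotic crossovers, and was at 115 and 142 TPM in Ctrl and at 161 and 199 TPM in AZ20, a change of 0.49 (SE 0.20, limma adjusted p = 0.519). In each of the 3 both AZ20 libraries were above both Ctrl libraries. Since the 3 were picked by their p-values in these same libraries, that order is no further support. The conditions did not overlap, in either direction, for 38.1% of all genes tested. None of the 3 passed after adjustment over all genes.

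Rwdd3, whose product RSUME promotes SUMO conjugation, had the lowest change of the 20, −0.45 (limma adjusted p = 0.823), with 8.59 and 6.75 TPM in Ctrl and 8.15 and 3.32 TPM in AZ20. Only AZ20 replicate 2 lay below both Ctrl libraries. Of the group of other ligases, which also holds Rangap1, not itself a ligase gene, 7 were tested. Their changes ran from −0.25 for the PIAS-like gene Zmiz2 (limma adjusted p = 0.858) to that of Ranbp2. Zmiz2 was at 4.88 and 4.64 TPM in Ctrl and at 3.70 and 4.03 TPM in AZ20, with both AZ20 libraries below both Ctrl libraries. Zmiz1, another PIAS-like gene, lay under the level filter and was at or below 0.183 TPM in each library.

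The 9 deconjugating proteases were all tested, and 6 of their changes were above 0 and 3 below. The highest was Senp3, a nucleolar SUMO protease, at 26.5 and 28.4 TPM in Ctrl and 30.2 and 40.7 TPM in AZ20, a change of 0.34 (limma adjusted p = 0.752). The lowest was Senp7, which trims SUMO chains, at 10.7 and 11.0 TPM in Ctrl and 7.14 and 11.6 TPM in AZ20, a change of −0.23 (limma adjusted p = 0.882). For Senp3 both AZ20 libraries were above both Ctrl libraries, and for Senp7 they lay on either side. Rnf111, the other SUMO-targeted ubiquitin ligase gene examined, changed by −0.06 (limma adjusted p = 0.975).

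**Figure D4:**
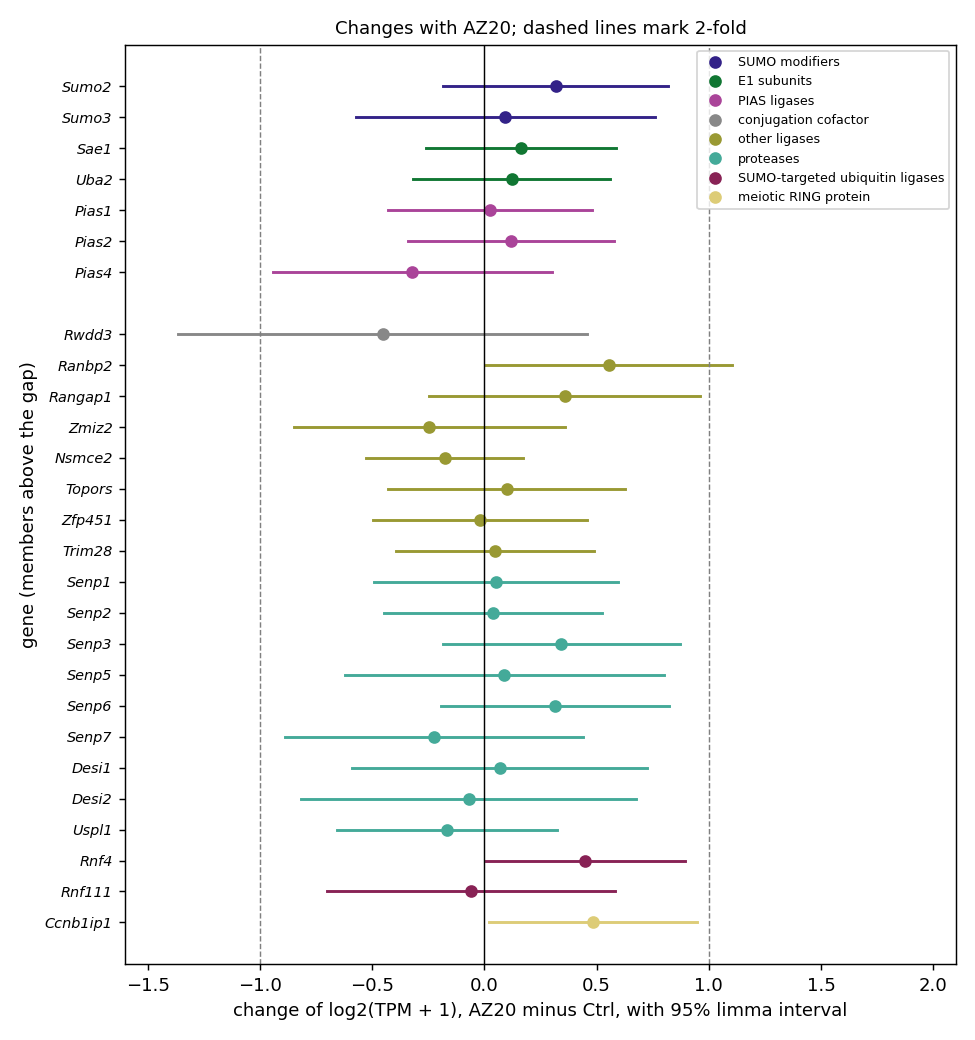
Change of log2(TPM + 1), AZ20 minus Ctrl, with 95% limma intervals, for the 7 tested SUMO pathway genes (above the gap) and the 20 other pathway genes tested, coloured by role. Rangap1 is coloured with the other ligases, though it is not a ligase gene. Dashed lines mark 2-fold on the log2(TPM + 1) scale, and for Pias4 a 2-fold fall in TPM is not excluded. The intervals of the 7 genes all cross 0 and stay inside the dashed lines, and among the 20 only Ranbp2, Rnf4 and Ccnb1ip1 have intervals that do not cross 0.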

How the data were processed

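Per the labels and the methods of the study, paired 150-bp reads were trimmed with Trimmomatic 0.39, aligned to GRCm38/mm10 with STAR 2.5.4b keeping unique alignments, and counted with featureCounts 2.0.1 on the UCSC refGene annotation. The authors computed TPM from these counts and deposited 1 TPM column for each library; 92 lines without a gene name were left out here. Values are per gene, so isoforms cannot be told apart.

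Log2(TPM + 1), with a pseudocount of 1, was fitted with limma 3.58.1 (R 4.3.3), letting the variance follow intensity, for genes exceeding a mean of 1 TPM in at least 1 condition, and p-values were Benjamini-Hochberg adjusted over all genes tested. Ratios within a library were compared by exact permutation over the 4 libraries, which did not use the replicate pairs. Scripts ran in Python 3.11.15 with numpy 2.4.6, scipy 1.17.1 and pandas 2.3.3, transcripts were aligned with Biopython 1.88 and blastn 2.17.0, and positions and transcript sequences are from GENCODE M21.

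Reads were recovered from TPM as the whole numbers that 1 gene length makes of all 4 libraries, which succeeded for 16855 of 16857 genes above 0. TPM do not show a whole factor shared by all reads of a gene; it was set with RefSeq exon lengths for 1137 genes, and was limited after a comparison with mean counts in the study's source data, so depths are estimates. They serve as depth, for Pias3 and in the voom alternative.

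By the methods, each mouse gave cells to both conditions, and same-numbered libraries deviated together from their condition means (correlation 0.229 across 10316 genes). A block for the replicate number was tried as an alternative, since the methods name no such term.

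The genes, lists and tests were chosen with earlier results of these data known. All 8 genes were to be named, and of the other pathway genes those called, those with an unadjusted p under 0.05 and those with the highest and lowest change in each role. Of the 25 other pathway genes, 3 are not reported here and Rnf212 was not analysed here. Alternatives covered the pseudocount, level filter, scaling, trend, block, voom and leaving out each library.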

Additional observations from a re-analysis of the deposited data

How the results depend on the processing

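With 2 libraries a condition the spread is poorly known. The counts of called genes stayed at 0 for the SUMO pathway genes and for the other pathway genes tested under each of the 13 alternatives; of the 8 SUMO pathway genes, 7 were tested in each, and Pias3 as well in the one without a level filter. With the replicate block, 447 of 10316 genes (4.33%) were called in place of 240, the smallest adjusted p of the 7 tested SUMO pathway genes was 0.622 (limma), and no call changed. Leaving out a library leaves 1 in its condition, assumed to vary like the other condition; the calls over all genes were then between 0 (without either AZ20 library) and 185, so the absence of calls there says little. The median change of the members, 0.12, was 0.0319 with quantile normalization, 0.0538 with median-of-ratios scaling, 0.10 with voom, and from −0.0292 (without AZ20 replicate 2) to 0.22 (without Ctrl replicate 2) when a library was left out. Quantile normalization moved the median of all genes from 0.07 to −0.07. The median of the members was above that of all genes with quantile normalization and below it without Ctrl replicate 1 (0.0439 against 0.0922) and without AZ20 replicate 2 (−0.0292 against 0.11). Signs turned for Sumo3 (−0.00947 with quantile normalization, and from −0.20 without AZ20 replicate 2 to 0.38 without AZ20 replicate 1), Uba2 (from −0.0292 without AZ20 replicate 2 to 0.27 without AZ20 replicate 1), Pias1 (−0.0575 with quantile normalization, −0.0415 with median-of-ratios scaling, and from −0.0796 without Ctrl replicate 2 to 0.13 without Ctrl replicate 1), Rnf111 and Rwdd3 (0.11 and 0.0863 without AZ20 replicate 2, −0.23 and −0.99 without AZ20 replicate 1) and Senp7 (0.0910 without AZ20 replicate 1, −0.54 without AZ20 replicate 2). In replicate pair 2 alone, the log2 changes of the ratios turned to −0.0584 for Sumo2 to Sumo3, −0.24 for Sae1 to Uba2 and 0.31 for Pias1 to Pias2, and those of the shares to 0.20 for Pias1 and −0.11 for Pias2. The causes were not tested.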
